A study of Homo sapiens with 52 samples.

Results

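Ribosome footprints were compared between HEK293T cells given siRNA against DENR and cells given a control siRNA. The comparison covers 6 of the 52 samples of the series, chosen by their labels: 2 Ribo-seq libraries of siControl cells, 2 of cells with siDENR #1 and 2 of cells with siDENR #2, which is a second siRNA against the same target. All 6 come from 1 human embryonic kidney line grown in one medium. The labels give neither the siRNA sequences nor the dose or time of treatment, and they do not state that replicates are separate cultures. The p-values below thus rest on the spread between the 2 libraries of each group, which may be technical. The fit pools this spread over the groups and draws it towards that of other transcripts. Ribo-seq sequences the mRNA fragments that ribosomes protect from RNase I, here after lysis with cycloheximide. Scaled to its library, a count reports the share of footprints on a transcript and not an absolute number of ribosomes. The same cells also have RNA-seq libraries, and the series holds Ribo-seq of MCTS1 knockout (KO) clones and of wild type cells, whose labels name no siRNA.

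DENR forms a complex with MCTS1. The complex binds the small ribosomal subunit and removes the tRNA that is left on it after termination, which frees the subunit from the mRNA. It is also known to help small subunits start again downstream of some short upstream reading frames. Loss of DENR can thus change how many ribosomes reach a main reading frame as well as what happens to subunits behind a stop codon. Counts summed over a whole transcript, as used here, do not separate these positions.

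The features are versioned transcript identifiers, and none of the 226882 was paired with a gene in the tables used here. The level of DENR itself, markers of HEK293T cells and gene lists of the recycling and reinitiation pathways could therefore not be checked, and the labels are taken as they stand. Library totals were 29406824 and 32908525 counts for the control siRNA, 24505872 and 20597474 for siRNA #1, and 27548758 and 16370112 for siRNA #2. Replicates varied by 2.43 to 2.84 times counting noise, so none was a copy of another. On the transcripts called the same way with each siRNA, the wild type libraries lay away from the control siRNA libraries. Those transcripts were selected on the control siRNA values, which by itself places libraries outside the selection away from that control, so the gap is a description. Results below are therefore also given with wild type as the control, a choice made after seeing the data.

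Between DENR siRNA and control siRNA, 10.4% of the 108890 transcripts tested were called for the mean of both siRNAs, 4.37% higher and 6.05% lower (edgeR quasi-likelihood test, Benjamini-Hochberg adjusted p under 0.05). With siRNA #1 alone 10.6% of transcripts were called, 4.53% higher and 6.05% lower, and with siRNA #2 alone 9.21%, 4.21% higher and 5.01% lower. Transcripts called for the mean and for each siRNA alone in the same direction numbered 1967 higher, or 1.81% of those tested, and 1369 lower, or 1.26%. They are called shared rises and shared falls here. Both contrasts use the same 2 control libraries, so this count is a selection and no independent support for either siRNA. Among 3559 transcripts called with each siRNA alone, 223 moved in opposite directions.

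The shared rises had a median log2 change of 0.72 and the shared falls of -0.63, against -0.02 over all transcripts tested. At least 2-fold changes with each siRNA were reached by 495 shared rises and 183 shared falls. All 4 DENR siRNA libraries lay above both controls for 1967 of the 1967 shared rises and below both for 1365 of the 1369 shared falls, a separation that the selection favours. Over all transcripts tested, 12.7% had the first order and 10.5% the second. Because transcripts of one locus can be counted from the same reads, they were grouped where their deviations between replicates correlated above 0.95 over the 42 libraries with a column in the table. The shared rises formed 1159 such groups and the shared falls 839, with up to 24 and 14 transcripts in a group. The cut left apart some transcripts with nearly equal values in each library, such as ENST00000005558.8 and ENST00000403825.8. The numbers of groups, here and below, are thus not numbers of independent features.

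**Figure D1:**
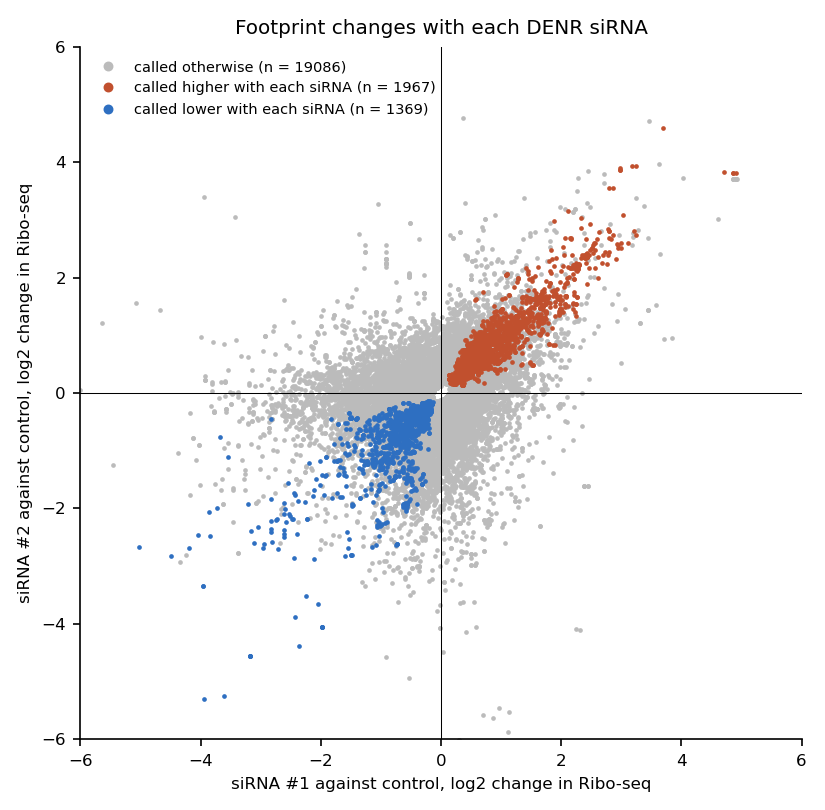
Log2 change of Ribo-seq against control siRNA for siRNA #1 (x axis) and siRNA #2 (y axis), for 22422 transcripts called in any contrast, of which 42 lie outside the axes. The 1967 shared rises (red) and 1369 shared falls (blue) occupy opposite corners by construction, and many grey points lie along an axis below 0, where a transcript fell with 1 siRNA and its change with the other was near 0.

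Of the shared rises with a mean of at least 5 CPM (counts scaled to equal library totals), ENST00000588411.5 had the largest smaller change of both siRNAs. Its level was 2.31 and 2.16 CPM in the control siRNA libraries, 13.4 and 13.3 CPM with siRNA #1, and 13.4 and 14.1 CPM with siRNA #2. All 4 DENR siRNA libraries lay far above both controls, and the wild type libraries, at 9.46 and 12.2 CPM, lay nearer to the DENR siRNA libraries. The log2 change was 2.58 ± 0.14 (SE; edgeR quasi-likelihood adjusted p = 9.2e-21), and the siRNAs differed by -0.05 ± 0.13 (adjusted p = 0.89). Against wild type the log2 change was 0.25 ± 0.12 and missed the threshold (edgeR adjusted p = 0.21). The second, ENST00000589266.5, stood at 1.80 and 1.73 CPM in the control siRNA libraries, 11.1 and 9.95 CPM with siRNA #1 and 10.6 and 11.2 CPM with siRNA #2. Again no DENR siRNA library came near a control library, while wild type was at 7.48 and 8.93 CPM. It followed ENST00000588411.5 at a near-constant ratio in RNA-seq and has nearly the same log2 changes, so both may share reads and are not independent examples. Its log2 change was 2.57 ± 0.16 against control siRNA (edgeR adjusted p = 1.5e-18) and 0.31 ± 0.13 against wild type (adjusted p = 0.13).

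The first 2 shared falls by the same rule were ENST00000005558.8 and ENST00000403825.8. ENST00000005558.8 had 8.06 and 10.1 CPM in the control siRNA libraries, 3.26 and 4.18 CPM with siRNA #1, and 3.70 and 3.60 CPM with siRNA #2. ENST00000403825.8 had 8.09 and 10.1 CPM, 3.26 and 4.22 CPM, and 3.78 and 3.60 CPM in the same order. Their values are nearly equal library by library, so they may be counted from the same reads and are not independent examples. The groups did not overlap, and wild type lay between them, at 5.35 and 5.19 CPM for the first and 5.43 and 5.60 CPM for the second. The log2 changes were -1.33 ± 0.15 and -1.32 ± 0.15 against control siRNA (edgeR adjusted p = 2.1e-09 and 2.3e-09). For the mean of both siRNAs they still fell against wild type, by 0.58 and 0.64 on the log2 scale (edgeR adjusted p = 0.025 and 0.012). With each siRNA alone against wild type, ENST00000005558.8 missed the threshold (edgeR adjusted p = 0.069 with siRNA #1 and 0.071 with siRNA #2) and ENST00000403825.8 passed it (0.039 and 0.043).

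**Figure D2:**
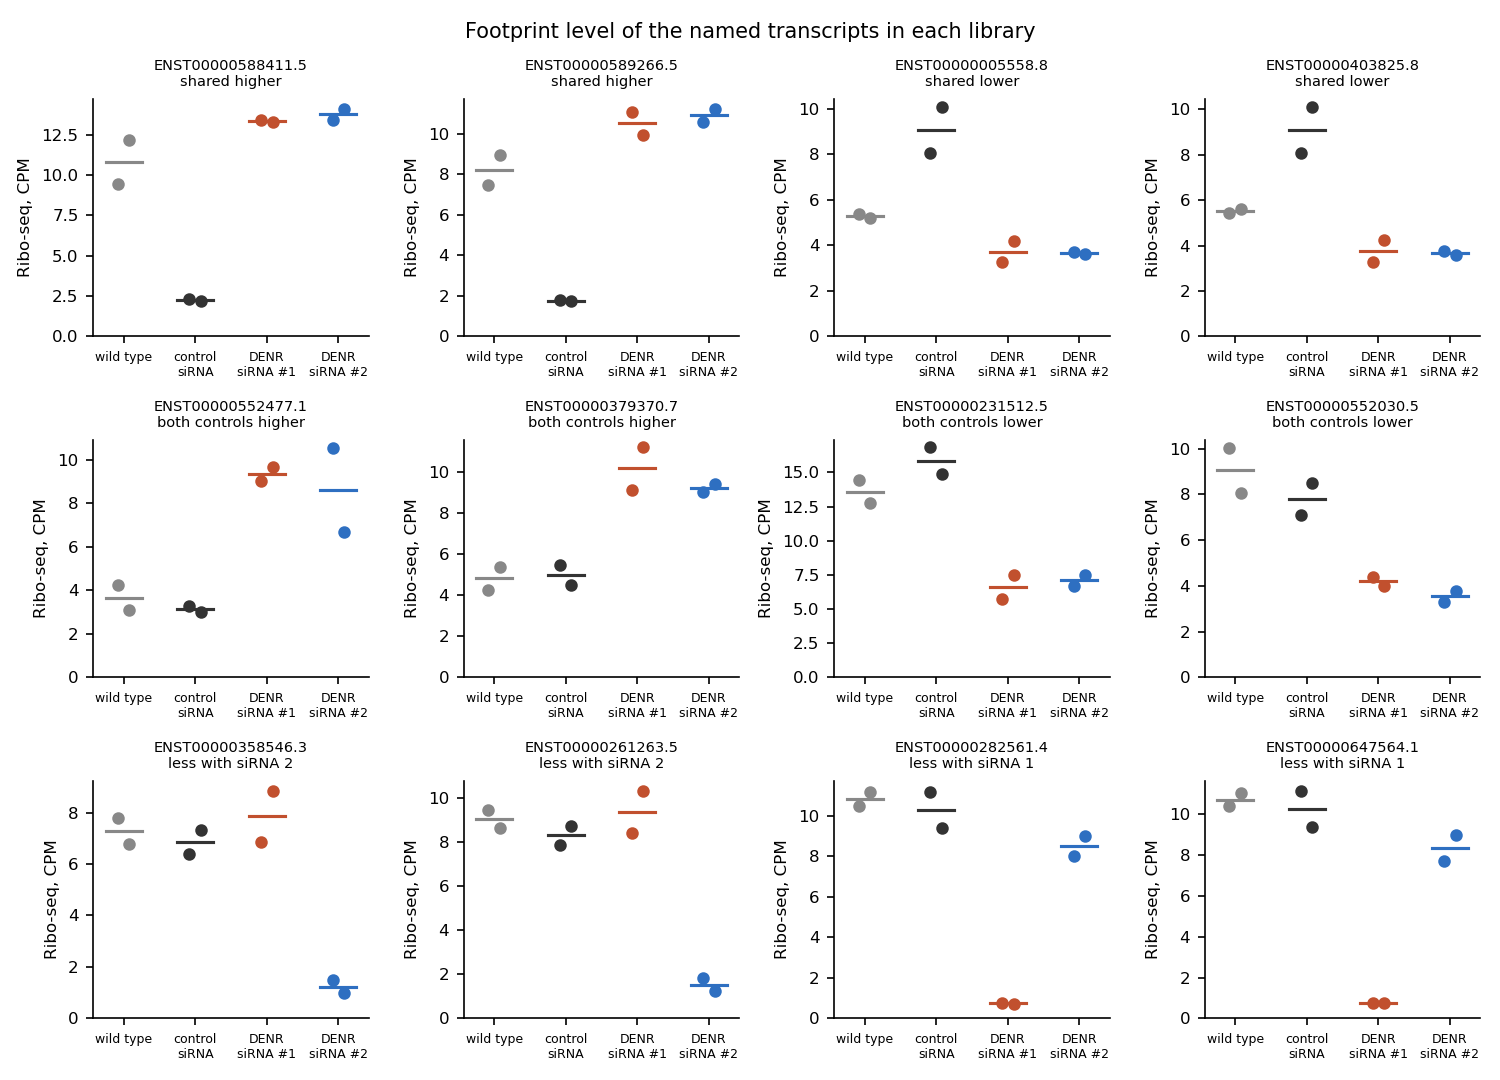
Ribo-seq level in CPM (y axis, linear from 0) of the 12 named transcripts in each library of wild type, control siRNA, DENR siRNA #1 and DENR siRNA #2 cells, with points for the 2 libraries and a line for their mean. In the first row, wild type lies near the DENR siRNA libraries or between the groups, in the second row near the control siRNA, and in the third row only 1 of the siRNAs stands apart.

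The wild type level was nearer to the DENR siRNA mean than to the control siRNA mean for 1384 (70.4%) of the shared rises and 721 (52.7%) of the shared falls. The median log2 difference of wild type from control siRNA was 0.51 for the shared rises, -0.29 for the shared falls and -0.04 over all transcripts. The shared rises took 4.46% ± 0.039 (SD, n = 2) of all counts in control siRNA Ribo-seq, 6.22% ± 0.024 with siRNA #1, 6.34% ± 0.047 with siRNA #2 and 5.88% ± 0.028 in wild type. For the shared falls the shares were 7.73% ± 0.095, 6.28% ± 0.053, 6.05% ± 0.024 and 6.74% ± 0.12 in the same order. In RNA-seq the shared rises took 4.30% of counts with control siRNA, 5.66% and 5.48% with the DENR siRNAs, and 5.20% in wild type, and the shared falls 5.07%, 4.24%, 4.06% and 4.53%. Among these groups the control siRNA had the lowest share of the rises and the highest share of the falls in both assays. The lists were chosen on Ribo-seq of the control and DENR siRNA libraries. That selection favours this order, and also a gap between wild type and control siRNA, so these values are a description. Wild type and control siRNA libraries differ in the siRNA and possibly in the time of the experiment, which cannot be told apart.

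**Figure D3:**
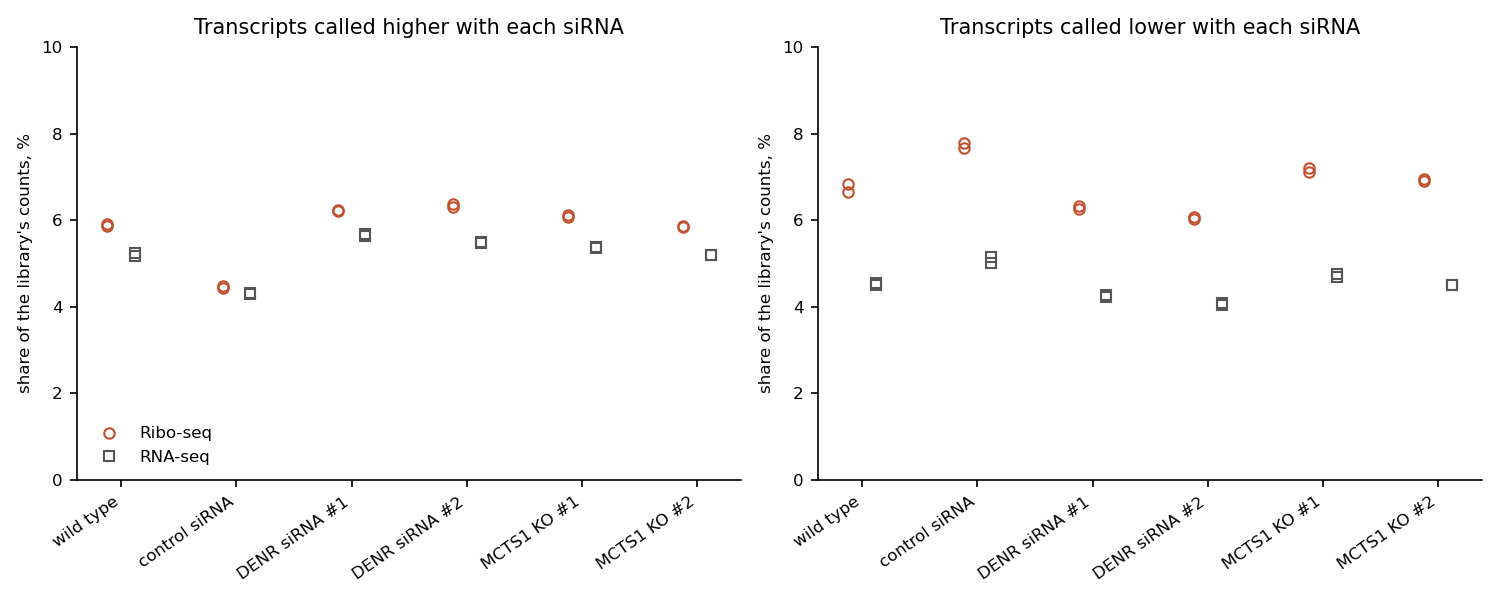
Share of each library's counts (y axis, percent) taken by the shared rises (left) and the shared falls (right) in Ribo-seq (circles) and RNA-seq (squares), 1 point a library, 2 libraries a group. The control siRNA libraries are the lowest on the left, at 4.46% in Ribo-seq, and the highest on the right, at 7.73%; the lists were chosen on the control and DENR siRNA circles.

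With the wild type libraries as the control and the same 4 DENR siRNA libraries, 9.78% of 107487 transcripts were called, 3.78% higher and 6.0% lower, and 1.33% rose and 1.57% fell for the mean and with each siRNA. Of the 1967 shared rises, 345 (17.5%) were called higher and 146 lower. Of the 1330 shared falls tested, 640 (48.1%) were called lower and 33 higher. Called for the mean and with each siRNA against both kinds of control were 158 rises, in 85 groups, and 374 falls, in 225 groups. Because the DENR siRNA libraries are shared, the second comparison is not independent of the first. The 158 rises had a median log2 change of 0.56 against control siRNA and 0.59 against wild type, and the 374 falls of -0.74 and -0.70. At least 2-fold changes with each siRNA against control siRNA were found for 36 of these rises and 53 of these falls.

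4 transcripts at the head of these narrower lists were chosen after their values were seen. The selection favours their separation from both kinds of control. ENST00000552477.1 was at 3.26 and 3.01 CPM with control siRNA and 4.23 and 3.09 CPM in wild type, against 9.02 and 9.66 CPM with siRNA #1 and 10.5 and 6.66 CPM with siRNA #2. Its lowest DENR siRNA library was above all 4 control libraries, and the log2 change was 1.51 ± 0.16 against control siRNA and 1.27 ± 0.17 against wild type (edgeR adjusted p = 3.3e-10 and 3.6e-06). In RNA-seq of the siRNA experiment this transcript had at most 7 counts in a library, too few to be tested. ENST00000379370.7 was at 5.47 and 4.50 CPM with control siRNA, 4.27 and 5.38 CPM in wild type, 9.14 and 11.2 CPM with siRNA #1, and 9.00 and 9.41 CPM with siRNA #2. The groups were apart again, by a log2 change of 0.93 ± 0.14 against control siRNA and 0.92 ± 0.14 against wild type (edgeR adjusted p = 1.2e-06 and 3.6e-05). In RNA-seq its log2 change was 0.79 ± 0.09 with siRNA #1 and 0.21 ± 0.09 with siRNA #2 (edgeR adjusted p = 2.7e-10 and 0.11), and the siRNAs differed (adjusted p = 6.3e-07).

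Among the falls, ENST00000231512.5 was at 16.8 and 14.9 CPM with control siRNA, 14.4 and 12.7 CPM in wild type, 5.75 and 7.53 CPM with siRNA #1, and 6.72 and 7.51 CPM with siRNA #2. Every DENR siRNA library was below every control library, with a log2 change of -1.24 ± 0.12 against control siRNA and -1.05 ± 0.13 against wild type (edgeR adjusted p = 3.9e-12 and 5.4e-07). ENST00000552030.5 was at 7.11 and 8.51 CPM, 10.0 and 8.07 CPM, 4.41 and 3.98 CPM, and 3.30 and 3.79 CPM in the same order. It too had no overlap, which the selection favours, at log2 changes of -1.05 ± 0.16 and -1.29 ± 0.15 (edgeR adjusted p = 1.2e-06 and 3.3e-07). Both fell in RNA-seq of the DENR siRNA cells, by 1.14 and 0.73 on the log2 scale (edgeR adjusted p = 4.6e-17 and 2.3e-06).

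Tested directly against each other, the siRNAs differed for 5665 transcripts higher with siRNA #1 (5.2%) and 6458 lower with siRNA #1 (5.93%), 11.1% of transcripts in all. They differed for 3967 (35.0%) of the 11348 transcripts called for the mean, and for 244 (12.4%) of the shared rises and 352 (25.7%) of the shared falls. For falls of at least 2-fold the share was larger. Of 2055 transcripts called lower by at least 2-fold with siRNA #1, the siRNAs differed for 1360 (66.2%), and of 1646 with siRNA #2 for 966 (58.7%). Of the 1285 and 1166 rises of that size, they differed for 213 (16.6%) and 222 (19.0%). Each of these sets was chosen on a large change with 1 siRNA, and the direct test uses the same libraries. The selection by itself favours a difference between the siRNAs, so the shares are a description.

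The 4 named transcripts of this contrast were called lower against control siRNA with only 1 siRNA in Ribo-seq. ENST00000358546.3 had 6.39 and 7.32 CPM with control siRNA, 6.86 and 8.84 CPM with siRNA #1, and 1.49 and 0.977 CPM with siRNA #2. ENST00000261263.5 had 7.89 and 8.75 CPM, 8.45 and 10.3 CPM, and 1.85 and 1.22 CPM in the same order. For both, siRNA #1 overlapped the control and siRNA #2 was below every other library, and the difference of siRNA #1 minus siRNA #2 was 2.59 ± 0.23 and 2.54 ± 0.21 on the log2 scale (edgeR adjusted p = 8.6e-13 and 4.5e-14). ENST00000282561.4 had 11.2 and 9.39 CPM with control siRNA, 0.775 and 0.728 CPM with siRNA #1, and 7.99 and 8.98 CPM with siRNA #2. ENST00000647564.1 had 11.1 and 9.39 CPM, 0.775 and 0.728 CPM, and 7.73 and 8.98 CPM. These values nearly coincide, so both may rest on the same reads. Here siRNA #1 was far below the rest, and the differences were -3.48 ± 0.24 and -3.46 ± 0.24 (edgeR adjusted p = 2.5e-17 and 4.0e-17). Against control siRNA, ENST00000282561.4 had a log2 change of -3.79 ± 0.23 with siRNA #1 and -0.30 ± 0.16 with siRNA #2 (edgeR adjusted p = 1.4e-19 and 0.27).

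The RNA-seq libraries showed the difference between the siRNAs too. In RNA-seq, the siRNAs differed for 24.9% of 131311 transcripts, 12.5% higher and 12.4% lower with siRNA #1. Of the 5434 transcripts higher with siRNA #1 in Ribo-seq that were tested in RNA-seq, 4056 (74.6%) were called in the same direction and 3 in the opposite one. Of 6217 lower with siRNA #1, 4808 (77.3%) were called in the same direction and 131 in the opposite one. The median log2 difference was 0.73 in Ribo-seq and 0.44 in RNA-seq for the first set, and -0.70 and -0.49 for the second. For ENST00000282561.4 the difference in RNA-seq was -2.34 ± 0.13, and for ENST00000358546.3 it was 1.90 ± 0.15 (edgeR adjusted p = 3.4e-22 and 9.5e-16). Against control siRNA, ENST00000282561.4 was also called lower with siRNA #2 in RNA-seq, by -0.46 ± 0.11 (edgeR adjusted p = 0.00092). ENST00000358546.3 was not called with siRNA #1 there (adjusted p = 0.23).

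**Figure D4:**
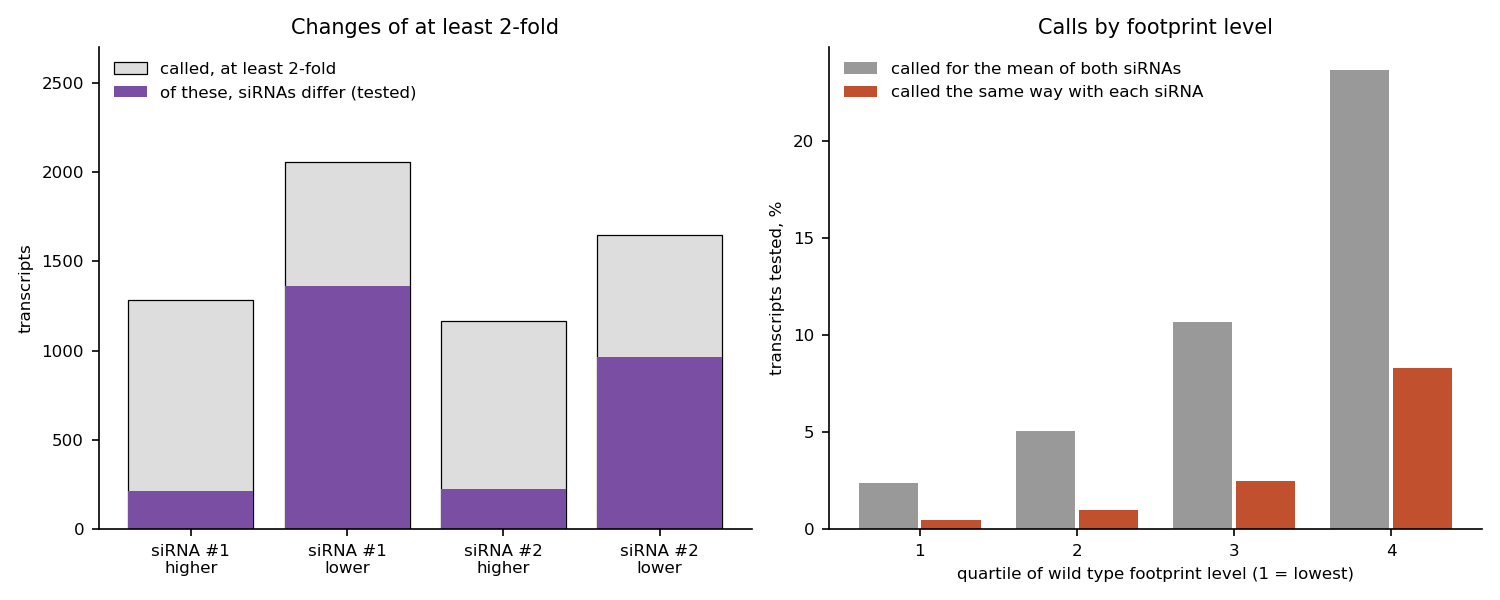
Left, number of transcripts (y axis) called higher or lower by at least 2-fold with each siRNA against control siRNA, with the part for which the siRNAs differed by the direct test in purple: 1360 of 2055 falls with siRNA #1 and 213 of 1285 rises. Each bar was chosen on the change with 1 siRNA, which favours a difference between the siRNAs. Right, percent of transcripts called (y axis) in quartiles of wild type footprint level, from 2.35% in the lowest to 23.6% in the highest for the mean of both siRNAs.

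The number of calls followed the footprint level. In quartiles of the wild type level, with median levels of 0.479, 1.43, 3.80 and 13.9 CPM, 2.35%, 5.05%, 10.6% and 23.6% of transcripts were called for the mean of both siRNAs. Shared rises and falls together made up 0.470% of the lowest quartile and 8.30% of the highest. The median log2 change of shared rises was 2.59 in the lowest quartile and 0.53 in the highest, and that of shared falls was -3.02 and -0.46. The changes that were called were thus larger where counts were low. Only called transcripts enter these medians, and at low counts only large changes can pass the threshold, which favours this trend. In simulated data with the same 108890 transcripts, 100 were changed by 2-fold and 100 by 4-fold, equally with both siRNAs. The test for the mean called 49% of changes of 2-fold and 82% of those of 4-fold, with 13 false calls. Of these changes, 42% and 68% were also called with each siRNA, with 0 false calls. Far more transcripts were called in the real data, where the siRNAs often differed, so these rates need not hold there.

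Most shared footprint changes were accompanied by a change of mRNA in the same direction. Between DENR siRNA and control siRNA, 23.1% of the 131311 transcripts tested in RNA-seq were called, 10.5% higher and 12.7% lower with DENR siRNA. Of the 1891 shared rises tested there, 1514 (80.1%) were called higher and 1 lower, and of the 1281 shared falls, 1052 (82.1%) were called lower and 6 higher. Over all 102515 transcripts tested in both assays, 11.8% were called higher and 15.0% lower. The median log2 change in RNA-seq was 0.47 for the rises, -0.47 for the falls and -0.02 over all. RNA-seq and Ribo-seq of a treatment may come from the same cultures, so the assays need not be independent. The narrower lists that hold against both controls had 106 of 152 rises (69.7%) and 318 of 356 falls (89.3%) called in the same direction in RNA-seq.

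The change of footprints relative to mRNA, tested as an interaction of group and assay, was called for 0.369% of 102515 transcripts, 0.244% higher and 0.125% lower. Of the shared rises, 167 were called relatively higher and 0 lower (edgeR quasi-likelihood test), in 84 read-sharing groups. These 167 had median log2 changes of 1.36 in Ribo-seq and 0.27 in RNA-seq. In RNA-seq 81 of them were not called, 85 were called higher and 1 lower. Of the shared falls, 45 were called relatively lower and 2 higher. Those 45, in 26 groups, had medians of -1.32 in Ribo-seq and 0.06 in RNA-seq. In RNA-seq 30 of them were not called, 9 were called lower and 6 higher. The Ribo-seq libraries that chose the lists also enter this test, which favours a relative change in the list's direction. Against control siRNA, ENST00000588411.5 rose by 1.32 ± 0.09 in RNA-seq and by a further 1.26 ± 0.17 relative to it (edgeR adjusted p = 2.2e-18 and 1.1e-05). Wild type lay nearer to the DENR siRNA cells in both assays. Its mean was 11.1 CPM in RNA-seq and 10.8 CPM in Ribo-seq, against 4.94 and 2.23 CPM with control siRNA. The means were 12.2 and 13.4 CPM with siRNA #1, and 12.8 and 13.8 CPM with siRNA #2. A relative change against wild type was not tested. For ENST00000005558.8 the change was -0.71 ± 0.08 in RNA-seq and -0.62 ± 0.16 relative to it, the latter short of the threshold (edgeR adjusted p = 5.1e-11 and 0.076). Among transcripts that held against both controls, 15 rises and 16 falls had a relative change in the same direction.

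**Figure D5:**
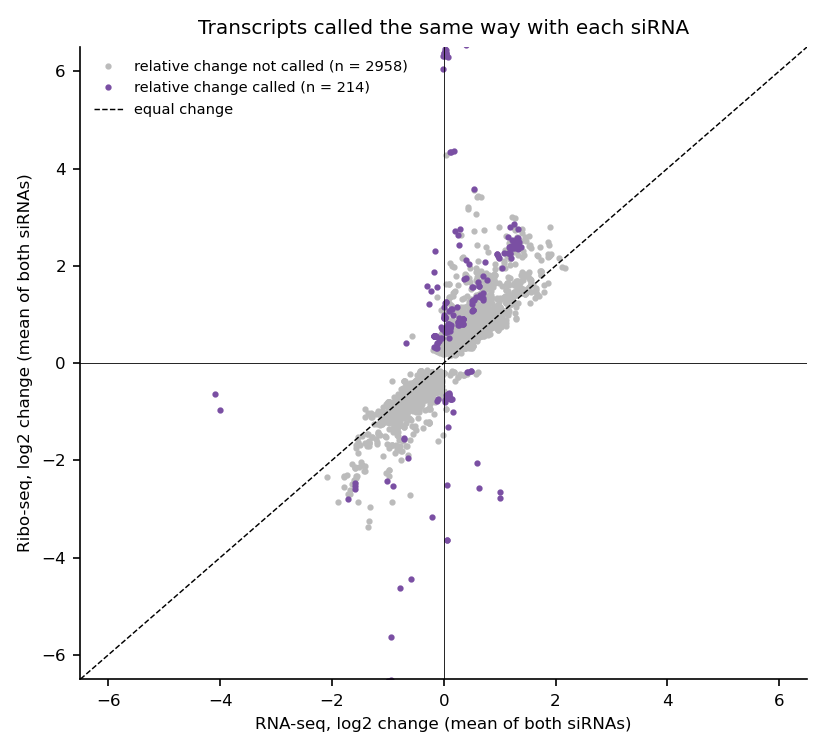
Log2 change in RNA-seq (x axis) and Ribo-seq (y axis), mean of both DENR siRNAs against control siRNA, for the shared rises and falls tested in both assays, 3 of which lie outside the axes. The 214 transcripts whose relative change was called (purple) lie mostly away from the dashed line of equal change, many of them near 0 in RNA-seq.

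MCTS1 KO libraries offer the partner protein's loss against wild type, with no library in common with the comparison against control siRNA. There, 6.11% of 115412 transcripts were called, 2.68% higher and 3.43% lower. Of 1965 shared rises tested, 146 (7.43%) were called higher and 76 (3.87%) lower, with a median log2 change of 0.05. Of 1335 shared falls, 175 (13.1%) were called lower and 68 (5.09%) higher, with a median of -0.05. Over the 107041 transcripts tested in both, 2.80% were called higher and 3.64% lower, with a median of -0.01. Called for the mean and in each of the 2 KO clones were 28 shared rises higher (1.42%) and 16 lower (0.814%), and 46 shared falls lower (3.45%) and 48 higher (3.60%). By that rule 0.484% of the 115412 transcripts were called higher and 0.477% lower, so the falls had calls in both directions in nearly equal number. The shared transcripts lie at higher levels, with median levels of 10.3 and 14.0 CPM against 2.46 CPM over all. The part of this level in the counts was not tested. ENST00000588411.5 rose in KO clone #1, by 0.53 ± 0.11 on the log2 scale, and had a change of 0.18 ± 0.11 in clone #2 (edgeR adjusted p = 0.0011 and 0.47), and the clones differed (adjusted p = 0.024). ENST00000005558.8, a shared fall, rose by 0.40 ± 0.12 in clone #1 and had a change of -0.21 ± 0.14 in clone #2 (edgeR adjusted p = 0.025 and 0.50). The clones differed here too (adjusted p = 0.0013). ENST00000282561.4 was called lower in each clone, with log2 changes of -0.50 ± 0.11 and -0.52 ± 0.12 (edgeR adjusted p = 0.0024 and 0.013). ENST00000358546.3 and ENST00000261263.5 were called in neither clone.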

How the data were processed

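Counts are whole-number reads per transcript as deposited by the authors, in 1 table of the series. The builds GRCh38.p13 and hg38 and the tools STAR, cutadapt, Subread and featureCounts are listed, per the submitters' processing notes. Strand, duplicates and reads overlapping several transcripts are not described in these sources. Groups came from the sample labels. edgeR 4.0.16 (R 4.3.3) was fitted to the 6 libraries with TMM factors, filterByExpr (minimum count 10), a robust quasi-likelihood fit and Benjamini-Hochberg adjustment over all transcripts tested, at 0.05. Standard errors were obtained by dividing a log2 change by the root of its F statistic. CPM use library totals and not length, so levels were not compared between transcripts. RNA-seq, relative change and MCTS1 KO were fitted likewise. Without gene names, the rule named 2 rises and 2 falls of at least 5 CPM with the largest smaller change of both siRNAs; the contrast between the siRNAs was treated likewise. Gene lists and markers could not be used. Members and lists were chosen with earlier results of these data known. DESeq2 1.42.0, other scalings and filters, a replicate block, each library left out and another control were tried. In simulated data with 100 changes of each size, equal for both siRNAs, the test for the mean recovered 49% of known 2-fold changes and 82% of 4-fold ones. These rates need not hold for the real data, where far more transcripts were called.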

Additional observations from a re-analysis of the deposited data

Results flagged for a closer look

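The siRNAs differed from each other by a direct test in 12123 transcripts in Ribo-seq. ENST00000358546.3 differed by 2.59 on the log2 scale (siRNA #1 minus siRNA #2), with the low level in siRNA #2. ENST00000261263.5 differed by 2.54, also with the low level in siRNA #2. ENST00000282561.4 differed by -3.48 and ENST00000647564.1 by -3.46, with the low level in siRNA #1. Outlying libraries could not be sought, since each group has 2.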

How the results depend on the processing

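Counts of calls depended most on the test and on single libraries. With DESeq2, calls for the mean fell from 11348 to 6226, for siRNA #1 to 6741, for siRNA #2 to 5742 and between the siRNAs to 7109, shared rises to 1196, shared falls to 741, and MCTS1 KO calls from 7050 to 4229; the cause was not tested. Leaving out each library in turn leaves a group with 1 library, which is assumed to vary like the others. The counts then ranged from 5721 to 11593 for the mean, 7170 to 13559 for siRNA #1, 5972 to 10767 for siRNA #2, 8300 to 11678 between the siRNAs, 1193 to 1773 for shared rises, 787 to 1268 for shared falls, 90 to 129 for rises and 263 to 339 for falls against both controls, 14751 to 40741 in RNA-seq, 158 to 765 for relative change and 2533 to 15401 for the MCTS1 KO. The lowest values for the mean came without control siRNA replicate 2 (5721) and replicate 1 (6073), which left 1211 and 1193 shared rises and 787 and 841 shared falls. Scaling by library totals called 5388 higher and 5765 lower. With wild type as the control, 10507 transcripts were called, 1431 shared rises and 1692 shared falls, of which 158 and 374 were called against control siRNA as well, and ENST00000588411.5 and ENST00000589266.5 lost their calls. Every other named transcript kept its direction and its call for the contrast it was tested in (the mean, or siRNA #1 against #2) under the alternatives run, but ENST00000005558.8 was no longer called with each siRNA alone against wild type (adjusted p = 0.069 and 0.071). Replicate numbers did not pair libraries (correlations of replicate differences of 0.0016, -0.013 and 0.028). With a replicate block, 10912 transcripts were called for the mean, 11087 and 9611 for siRNA #1 and #2, 11596 between the siRNAs, 1885 and 1285 as shared, 30913 in RNA-seq, 329 relative to RNA-seq and 8257 in the MCTS1 KO. The planned choice of 1 feature per gene was not run, since no table pairs transcripts with genes. Depth limits low transcripts: 2.35% of the lowest quartile was called.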

Other observations

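Fragments protected by small-subunit complexes were also sequenced after selection through a V5 tag (40S Sel-TCP-seq). The shared rises took 5.43% ± 0.034 (SD, n = 2) of counts in the DENR-V5 selection, 5.86% ± 0.36 (n = 2) in the MCTS1-V5 selection, 5.38% ± 0.067 (n = 2) in the eIF2D-V5 selection and 5.58% ± 0.078 (n = 4) in TCP-seq of wild type cells. For the shared falls the shares were 4.34% ± 0.19, 4.60% ± 1.2, 4.99% ± 0.84 and 3.59% ± 0.23. The falls thus had a higher mean share in each selection than in wild type TCP-seq, and the difference was not tested. The spread between libraries was wide for MCTS1-V5 and eIF2D-V5. In the MCTS1-V5 libraries the share was 3.75% and 5.45%, the first below 3.79% in wild type TCP-seq replicates 1 and 2. In unselected TCP-seq of KO cells the mean share was 3.64% and 4.06% (eIF2D KO #1 and #2) and 3.72% and 3.55% (MCTS1 KO #1 and #2).

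Of the 223 transcripts called in opposite directions with the siRNAs, 135 were higher with siRNA #1 and lower with siRNA #2, and 88 the reverse. One transcript of at least 5 CPM that fell against both controls moved far less in footprints than in mRNA: its log2 change was -0.97 in Ribo-seq and -4.01 in RNA-seq, and its footprints rose by 3.04 relative to mRNA (edgeR quasi-likelihood adjusted p = 3.1e-18). It was singled out after its values were seen.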
